A study of Mus musculus with 16 samples.

Results

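Exonic regions away from promoters were followed in the chromatin accessibility of mouse hematopoietic stem and progenitor cells (HSPCs). Peaks of 16 ATAC-Seq lists were merged on chromosomes 1 to 19 wherever they shared at least 1 base, which gave 291316 regions. A region was taken when its midpoint lay in an exon of a protein-coding gene, when it lay more than 3 kb from any annotated transcript start and when at least 4 lists had a peak in it. Of the 125367 regions in at least 4 lists, 84113 lay more than 3 kb from a start and 3363 of those were exonic. They comprised 1402 regions in coding exons, 1572 in 3′ untranslated exons, 16 in 5′ untranslated exons and 373 in exons that only non-coding transcripts of a protein-coding gene use. All 3363 are described, with no filter on low values beyond the 4 lists.

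The study asked what loss of p300, an acetyltransferase of histones and other proteins encoded by Ep300, does to HSPCs that lack Tet2, an enzyme that oxidizes 5-methylcytosine. All mice were on a C57BL/6 background, carried floxed Ep300 and received poly(I:C), which turns on Mx1-Cre through interferon in many tissues besides HSPCs. WT mice were Ep300 fl/fl, P300KO mice Mx1-Cre Ep300 fl/fl, TET2KO mice Ep300 fl/fl Tet2-/- and P300KO_TET2KO mice Mx1-Cre Ep300 fl/fl Tet2-/-, so that Tet2 was missing from the germ line and Ep300 was deleted in the adult. Each genotype had 4 libraries, each from HSPCs of 2 pooled age-matched mice and 50000 viable cells, and mice of both sexes were used. Poly(I:C) was given to young adult mice. Experiments followed within weeks or at times stated for each, and no time is stated for these libraries. The number of mice of each sex behind a library is not given in the sources used here. A peak list can show no cell type, so fewer cells of a type and less open chromatin per cell cannot be told apart.

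An exon is the part of a gene kept in its mature RNA. Coding exons are read into protein, while the 3′ untranslated exon follows the stop codon and carries sites that govern RNA stability and translation. The transposase of ATAC-Seq inserts into DNA that is already accessible, in exons as elsewhere, and an exon away from any annotated start can lie in an enhancer, in an unannotated promoter or in a site bound by an insulator protein such as Ctcf. Coding sequence is richer in G, C and CpG dinucleotides than introns, and CpG-rich DNA is often free of methylation and of nucleosomes.

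The strength of a peak was expressed as its percentile within its own list, from the authors' −log10 p. The strongest peak of a list has percentile 100, and a region without a peak in a list was set to 0 where a mean over libraries was taken. The levels of a region are therefore positions within a library, not amounts of DNA.

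Stretches of coding sequence from the strongest and from the changed regions show what these exons carry. They were read from the plus strand of the reference mouse genome GRCm38, which is mm10, and each is 30 bases long, wholly coding and within 100 bp of the summit of the region's strongest peak. Capitals mark CpG dinucleotides in the first 2 lines.
Zfp771 (chr7:127254451-127254480): agtgCGgcCGgCGcttcCGcctcagctcac
Itgb4 (chr11:116005047-116005076): gaaggggagggcagCGgctggatcCGCGgg
In the next lines capitals mark a string, on either strand, that factors of blood cells or Ctcf are known to favor: AGGGGGC and AGATGGC for Ctcf, TGTGGT for Runx and AGGAAGT for Ets factors. The first 4 are from regions among the strongest, the last 3 from regions that changed with genotype.
Synpo2l, Ctcf string (chr14:20661150-20661179): cttgtaactcctGCCCCCTagtggctgcat
Tacr2, Ctcf string (chr10:62261291-62261320): gagctaacctgcGCCATCTacaggccaaga
Itsn1, Runx string (chr16:91869770-91869799): tatgtaaagctgACCACAgacatggacccc
Prr36, Ets string (chr8:4214561-4214590): gggaggagagggAGGAAGTgtggtttgcga
Adam10, Ets string (chr9:70740125-70740154): tttgaaaggatgAGGAAGTaccaaatgact
Sgms2, Ets string (chr3:131330364-131330393): tggccgctgaagAGGAAGTctccgcacagg
Cmbl, Runx string (chr15:31585367-31585396): ctgggggggtgtTGTGGTgcaccaagtgat
In the Prr36 window the Ets string runs into a Runx string and shares a base with it. A string is a description of the sequence and not a measured binding site.

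The libraries fell into 2 deposit sets that differed in list length. Replicates 1 and 2 form set 1 and replicates 3 and 4 set 2, as the labels tell, and nothing states what differed between them. Lists of set 1 held 84704 to 108200 peaks on chromosomes 1 to 19 and those of set 2 127437 to 134268. The study's methods state a target for reads per sample, and the read depth of each library is not given in the sources used here. Each set holds 2 libraries of every genotype, so the p300 and Tet2 effects were tested within sets or with the set as a term. The permutation tests of P300KO_TET2KO against TET2KO regrouped the 8 libraries without regard to set, and their p within sets (36 regroupings, the smallest p being 0.0556) is given beside them.

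The targeted genes could not be checked from exonic regions. The 1 exonic region at Ep300, in a coding exon at chr15:81648872-81649641, had a peak in 5 lists, at percentile 46.3 in WT replicate 1, 23.96 and 8.40 in P300KO replicates 2 and 3, and 22.7 and 0.708 in TET2KO replicates 1 and 2. Libraries with and without deleted Ep300 both had it, and the floxed part of Ep300 is not given in the sources used here. Tet2 had no exonic region of this kind.

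Exonic regions were a small but dense part of the distal regions. The distal exonic sequence of chromosomes 1 to 19 amounted to 46.6 Mb and held 72.1 regions per Mb. Introns held 55.6 regions per Mb over 717 Mb and intergenic sequence 32.1 per Mb over 1121 Mb. Within exons, coding sequence held 80.7 regions per Mb and 3′ untranslated sequence 69.2. These densities describe a single merged set and have no error of their own. The regions belonged to 2793 genes or pairs of overlapping genes, of which 2321 had 1 region, 393 had 2 and 79 had 3 or more. Zan, which encodes the sperm protein zonadhesin, and Sptbn4, which encodes a spectrin, had 6 coding regions each. The mean percentiles of the Zan regions ran from 4.66 to 72.6 and those of Sptbn4 from 14.2 to 84.2. Srcin1, which encodes an inhibitor of Src kinase, had 5 regions, at 35.9 to 88.4. At 33 regions the midpoint lay in exons of more than 1 gene, and these regions cannot be assigned to either.

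A peak in a coding exon was mostly wider than its exon, whereas a peak in a 3′ untranslated exon mostly lay inside it. The median width was 588 bp for coding and 536.5 bp for 3′ untranslated regions, against 501 bp in introns. The exon at the midpoint had a median of 274 bp in coding and 2958.5 bp in 3′ untranslated regions. Of the coding regions, 237 (16.9%) lay wholly within 1 exon. The median coding region had 55.7% of its bases in exons of protein-coding genes, counted over every exon it overlapped. Of the 3′ untranslated regions, 1252 (79.6%) lay wholly within the exon. A coding region thus in most cases reached past the exon at its midpoint.

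Coding regions were richer in CpG than any other distal class of size. The median ratio of observed to expected CpG, counted in 300 bp around the summit, was 0.339 in coding regions, 0.220 in 3′ untranslated regions, 0.192 in introns and 0.202 in intergenic regions. The median GC content was 55%, 50%, 48% and 48.3% in the same order. Regions with over 50% GC and a CpG ratio above 0.6, called CpG-rich here, made up 221 (15.8%) of the coding and 42 (2.67%) of the 3′ untranslated regions. They made up 0.637% of intronic, 2.11% of intergenic and 30.8% of promoter regions. Composition was counted once per region from the reference and has no replicates.

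Transcription factor strings were counted in each class, with no test. Strings were searched on both strands within 100 bp of the summit. For Gata factors they were AGATAA and TGATAA, and for Ets and Runx factors the ones given above. For Cebp factors the string was TTGCNNAA and for E-box proteins CAGCTG. Ap1 was searched as TGACTCA or TGAGTCA. For Ctcf the search took AGGTGGC and AGAGGGC besides both strings named above. A Gata string was present in 8.27% of coding and 13.9% of 3′ untranslated regions, against 17.2% of intronic and 14.8% of all regions in at least 4 lists. Ap1 strings followed the same order, at 3.85%, 5.79%, 7.05% and 6.401%. Runx strings were at 21.6%, 24.7%, 28.9% and 25.2%, and Ets strings at 19.3%, 20.2%, 23.3% and 20.5%. Cebp strings were at 8.203%, 9.03%, 9.68% and 8.98%. The Ctcf strings and CAGCTG went the other way. Ctcf strings were at 31.5% and 31.6% in coding and 3′ untranslated regions, against 26.7% in introns and 28.7% of all regions, and CAGCTG at 20.8% and 17.8%, against 15.3% and 15.1%. Short strings follow base composition, which differs between the classes as given above, and the part of composition in these shares was not tested.

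How often an exonic region had a peak depended mainly on the deposit set. WT libraries had a peak in 37.6%, 52.3%, 87.2% and 86.7% of the 3363 regions, in the order of replicates 1 to 4. For P300KO the shares were 60.3%, 47.6%, 89.2% and 87.1%. For TET2KO they were 56.1%, 55.8%, 87.7% and 87.0%, and for P300KO_TET2KO 63.2%, 66.7%, 85.6% and 86.0%. Every library of set 1 lay below every library of set 2. Within set 1 both TET2KO libraries lay above both WT libraries, and P300KO_TET2KO libraries were the highest of set 1 and the lowest of set 2. The mean was 54.9% ± 9.26 (SD, n = 8) in set 1 and 87.1% ± 1.09 (SD, n = 8) in set 2.

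**Figure D1:**
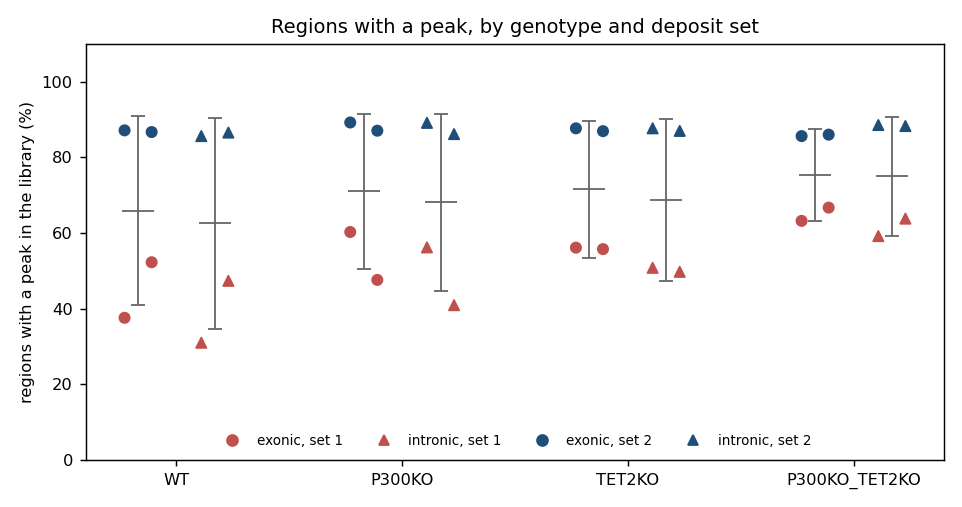
Share of regions with a peak in each library (%), for exonic regions (circles) and intronic regions more than 3 kb from a start (triangles), with the mean ± SD of the 4 libraries of a genotype in grey. The red libraries of set 1 lie between 31.0% and 66.7%, the blue ones of set 2 between 85.6% and 89.2%, and exonic points lie above intronic ones in set 1.

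Averaged over Tet2 background, exonic regions had a peak in 73.2% ± 15.7 (SD, n = 8) of cases in the libraries with deleted Ep300 and in 68.8% ± 20.4 (SD, n = 8) in the others. The difference was 4.44 percentage points (exact permutation test over 1296 arrangements within Tet2 background and deposit set, two-sided, p = 0.0941, adjusted p = 0.141 over 3 comparisons). Set 1 alone gave 9.02 points, set 2 alone −0.134. For Tet2 the difference was 5.03 points (exact permutation p = 0.0895, adjusted p = 0.141), 11.0 in set 1 and −0.966 in set 2. With 1 library left out the p300 difference ran from 2.61 to 6.28 points and the Tet2 difference from 3.19 to 6.87. P300KO_TET2KO exceeded TET2KO by 3.77 points (exact permutation p = 0.657 over 70 regroupings that disregard the set, the smallest p these allow being 0.0286, and 0.333 within sets). Set 1 gave 9.02 points and set 2 −1.49. The difference turned to −1.40 without TET2KO replicate 1 and to −1.52 without TET2KO replicate 2. Since this comparison disregards the set, leaving out 1 library unbalances the sets, and these turns cannot be told apart from the difference between sets. None of the 3 passed the test. The minimum of 4 lists had used the same presence values, without regard to genotype, and set 2 left little room for a difference, so nothing is read from this about the absence of an effect. Only without adjustment over comparisons was the p300 difference under the threshold with the strongest 50000 peaks of every list (exact permutation p = 0.0401). Likewise unadjusted, the Tet2 difference was under it with a −log10 q of at least 2 or in regions of at least 8 lists (exact permutation p = 0.0494 and 0.0448). It was also so without P300KO replicate 3 (5.30 points, exact permutation p = 0.0432, not adjusted).

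The gap between exonic and intronic regions in the share with a peak differed between the deposit sets, which is given as a description. The share of exonic regions with a peak exceeded the intronic share by 2.92 to 6.69 percentage points in the 8 libraries of set 1 and by −2.92 to 1.52 points in set 2. The means were 5.08 ± 1.34 (SD, n = 8) and −0.324 ± 1.51 (SD, n = 8). The difference between sets was 5.40 points, and 4.04 points with CpG-poor regions only. The sets differ in list length, the minimum of 4 lists used the same presence values, and the high shares of set 2 left little room for a gap there, so no test is given. This comparison was chosen after the data had been seen.

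Exonic regions also ranked above intronic ones. Among regions with a peak in a library, the median percentile of exonic regions was between 48.6 and 64.4 and exceeded that of intronic regions in 16 of 16 libraries, by 1.24 to 4.997 points. The mean difference was 3.36 ± 0.998 points (SD, n = 16 libraries, exact sign-flip permutation test, two-sided, p = 3.05e-05, the smallest these libraries allow). Among regions in all 16 lists it was 0.952 ± 0.754 points (SD, n = 16, exact sign-flip permutation p = 3.05e-05, higher in 16 of 16), a smaller difference. The 16 libraries score the same regions, so the sign-flip tests here and below do not measure the spread between regions. Against intergenic regions, a comparison added after the data had been seen, exonic regions differed by −0.102 ± 1.13 points (exact sign-flip permutation p = 0.718). They were higher in 8 of 8 libraries of set 2 but in 1 of 8 of set 1. Exonic regions thus stood above introns, while against intergenic regions the sets went opposite ways, with means of −0.904 ± 1.04 points in set 1 and 0.700 ± 0.401 in set 2 (SD, n = 8).

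Within exons, the order of coding and 3′ untranslated regions depended on which regions were compared. Among regions with a peak in the library, the median percentile of coding regions was 54.0 ± 4.03 and that of 3′ untranslated regions 54.1 ± 3.75 (SD, n = 16). Coding regions were higher in 7 of 16 libraries, and the mean difference was −0.190 ± 1.58 points (exact sign-flip permutation p = 0.635). Another set of regions, those in all 16 lists, was tested in addition. Among these 850 exonic regions, 367 coding and 413 3′ untranslated, coding regions were higher in 16 of 16 libraries, by 0.774 to 2.24 points. There the mean difference was 1.66 ± 0.412 points (SD, n = 16, exact sign-flip permutation p = 3.05e-05). The regions in all 16 lists are the strong ones: their median percentile was 69.9 to 81.7 in a library. Beyond the regions in all 16 lists, other settings went both ways. The difference was −2.66 points with a region placed by the summit of its strongest peak (exact sign-flip permutation p = 0.000153). It was −0.794 points at 1 kb from a start (exact sign-flip permutation p = 0.0314). With the strongest 50000 peaks of every list it was 3.69 points (exact sign-flip permutation p = 3.05e-05). Not past the threshold were 0.526 points with a −log10 q of at least 2 and 0.332 in regions of at least 8 lists. The same held for −0.361 points with exons of protein-coding transcripts only. In CpG-poor regions, a setting chosen after the data had been seen, the difference was −2.06 points (exact sign-flip permutation p = 0.00125).

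**Figure D2:**
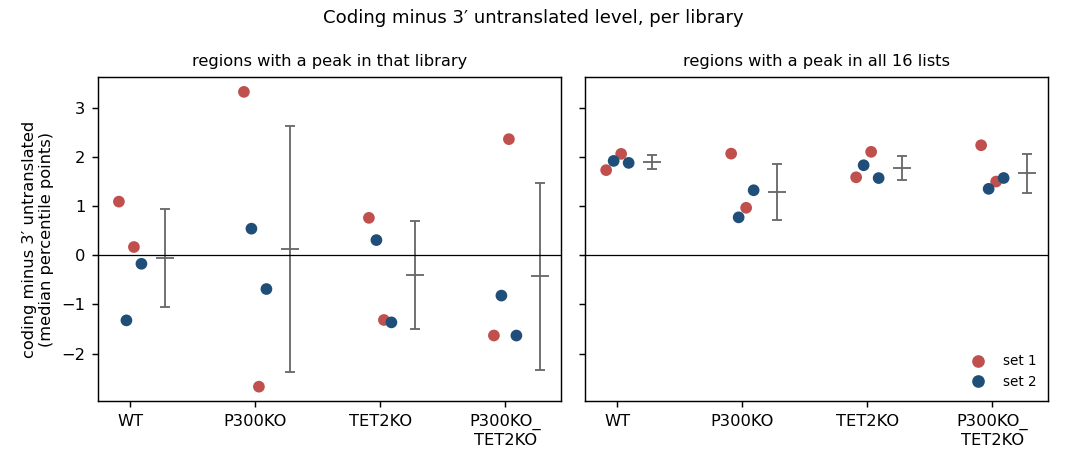
Median percentile of coding minus 3′ untranslated regions in each library (percentile points), over regions with a peak in that library (left) and over regions in all 16 lists (right), with the mean ± SD of the 4 libraries of a genotype in grey. On the left 7 of 16 points lie above 0, on the right all 16 do, between 0.774 and 2.24.

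By genotype, this balance did not pass the test with all 16 libraries. Among regions in all 16 lists, the coding excess had a mean of 1.902 ± 0.136 percentile points (SD, n = 4 here and for the other genotypes) among WT libraries. It was 1.28 ± 0.572 for P300KO, 1.78 ± 0.251 for TET2KO and 1.67 ± 0.393 for P300KO_TET2KO. The difference with deleted Ep300 was −0.363 points (exact permutation p = 0.0941, adjusted p = 0.282), that with Tet2-/- 0.129 points (exact permutation p = 0.5, adjusted p = 0.657), and P300KO_TET2KO differed from TET2KO by −0.108 points (exact permutation p = 0.657, and 0.667 within sets). The p300 difference passed when 1 library was left out, at −0.501 without P300KO replicate 1 and −0.455 without P300KO_TET2KO replicate 1 (exact permutation p = 0.0309 and 0.0324, not adjusted). With the strongest 50000 peaks of every list the p300 and Tet2 differences were −1.55 and 1.55 points (exact permutation p = 0.0231 and 0.0201). The median percentile of the 850 regions themselves was 78.1 ± 3.66 for WT, 76.7 ± 5.47 for P300KO, 76.7 ± 5.25 for TET2KO and 77.2 ± 3.98 for P300KO_TET2KO (SD, n = 4). The corresponding differences were −0.478, −0.432 and 0.511 points (exact permutation p = 0.656, 0.569 and 0.686, the last being 0.389 within sets). Without P300KO replicate 2 the Tet2 difference was −1.002 points and passed (exact permutation p = 0.0201, not adjusted). None of these directions was steady: with a −log10 q of at least 2 the p300 and Tet2 differences were 3.32 and 4.07 points and with the strongest 50000 peaks 0.760 and 0.0501. The third was 1.60 points in set 1 and −0.574 in set 2. It was −0.621 to −1.16 points without TET2KO replicate 1 or 2 or P300KO_TET2KO replicate 3 or 4. Each of these removals unbalances the sets, which that comparison disregards, so these turns cannot be told apart from the difference between sets. Set 1 lay at 69.9 to 75.9 and set 2 at 80.6 to 81.7, so the sets did not overlap.

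CpG-rich coding regions had a peak more often than other coding regions in each library, which is given as a description since the high shares of set 2 left little room for a difference. They had a peak in 59.7% to 94.6% of cases, against 36.6% to 88.5% for other coding regions, and were above them in 16 of 16 libraries. The mean excess was 15.02 ± 9.56 percentage points (SD, n = 16), and it was 24.1 ± 2.11 in set 1 and 5.97 ± 2.09 in set 2 (SD, n = 8). Where both had a peak, the median percentile of the CpG-rich ones was 13.8 ± 2.60 points higher (exact sign-flip permutation p = 3.05e-05). Among regions in all 16 lists the excess was 1.34 ± 2.39 points (exact sign-flip permutation p = 0.0422), positive in 8 of 8 libraries of set 1 and in 1 of 8 of set 2. Of the 221 CpG-rich coding regions, 106 (48.0%) were in all 16 lists, against 261 of 1181 (22.1%) of the others. CpG-rich regions were examined after the data had been seen.

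**Figure D3:**
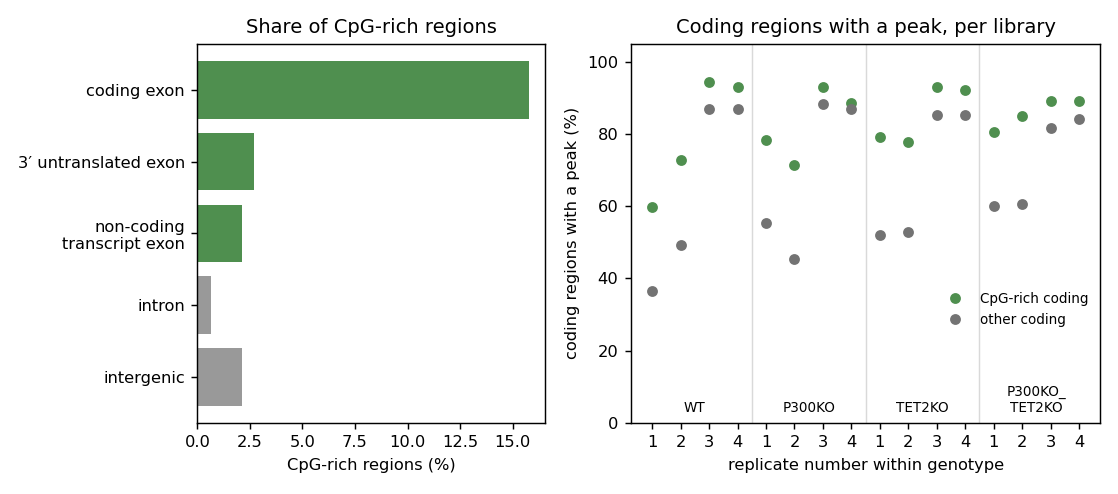
Left, share of regions that were CpG-rich (%) in each distal class, with exonic classes in green: 15.8% of coding and 2.67% of 3′ untranslated regions. Right, share of CpG-rich (green) and other (grey) coding regions with a peak in each library (%), by genotype and replicate, in which the green points lie above the grey ones in all 16 libraries.

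Since Tet2 acts on methylated CpG, the CpG-rich exonic regions were compared between genotypes. They had a peak in 80.9% ± 16.1 of cases for WT, 83.7% ± 9.72 for P300KO, 85.5% ± 7.89 for TET2KO and 86.0% ± 3.99 for P300KO_TET2KO (SD, n = 4 libraries, 275 regions). The Tet2 difference was 3.45 points (exact permutation p = 0.210) and the p300 difference 1.64 points (exact permutation p = 0.560). P300KO_TET2KO and TET2KO differed by 0.455 points (exact permutation p = 0.971, and 0.944 within sets). Each of these went opposite ways in the sets, at 9 and −2.09 points for Tet2, 6.09 and −2.82 for p300, and 4.18 and −3.27 for P300KO_TET2KO against TET2KO (set 1 first). With 1 library left out they ran from 1.77 to 5.14 points for Tet2, from −0.0455 to 3.32 for p300 and from −2 to 2.73 for P300KO_TET2KO against TET2KO. In the last of these a library left out unbalances the sets. None of the 3 differences passed the test, which has the same limits as that on all exonic regions.

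The genes with the strongest coding regions had varied functions, and none was in the hematopoietic gene lists described below. Regions were ordered by their mean percentile over the 16 libraries, and the first 15 genes with a coding region had 93.4 to 97.95, all with a peak in 16 of 16 lists. The strongest was in Prdm2, which encodes a histone methyltransferase-like zinc finger protein, at chr4:143161547-143162695. Its percentile was 95.4 at the lowest, 98.3 at the median and 99.1 at the highest. Its exon of 127 bp took up 11.1% of the region. Il21r, which encodes the receptor of interleukin 21 on lymphocytes, followed at chr7:125630155-125631316 with a mean of 96.95 (93.7 to 98.6). Spen, which encodes a transcriptional corepressor, had its region wholly inside an exon of 8020 bp at chr4:141477355-141478411, with a mean of 96.5 (94.6 to 98.3). These 3 regions varied little between libraries, with SDs of 0.972, 1.20 and 0.985 points.

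The other 12 were Synpo2l (96.3), Guca1a (96.1), Zfp771 (96.1), Tacr2 (95.9), Trim14 (95.3), Rai1 (95.2), Synpo (94.8), Gtf3c1 (94.7), Itgb4 (94.6), Prr36 (94.5), Itsn1 (93.6) and F12 (93.4), each given with its mean percentile. Synpo2l and Synpo encode actin-binding proteins, Guca1a an activator of photoreceptor guanylate cyclase, Tacr2 a neurokinin receptor, Gtf3c1 a subunit of the RNA polymerase III factor TFIIIC, Itgb4 integrin β4, Itsn1 an endocytic scaffold and F12 coagulation factor XII. By the measure above 7 of the 15 regions were CpG-rich, among them Zfp771 and Itgb4 with the sequences shown. Each of the 15 had an SD of 0.837 to 2.23 points over the 16 libraries, and neighbours in the order did not differ beyond the larger of their SDs.

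The first 10 genes with an untranslated region had mean percentiles of 94.1 to 99.7, again with a peak in 16 of 16 lists. Lars2, which encodes the mitochondrial leucyl-tRNA synthetase, stood first among all 3363 regions, at chr9:123461719-123462268 in its 3′ untranslated exon. Its percentile was 97.8 at the lowest, 100.0 at the median and 100.0 at the highest. Of its 24-base words, 50.3% occur elsewhere on the assembled chromosomes or the mitochondrial genome, so the level of this region is uncertain. No exonic region shared such a word with the mitochondrial genome. Sf3b5, which encodes a splicing factor subunit, came second with a 5′ untranslated region at chr10:13007940-13009108, a mean of 98.4 and a CpG ratio of 1.06. Among untranslated regions the gaps from Lars2 to Sf3b5 and from Sf3b5 to the next gene exceeded the SDs of both neighbours (0.668, 0.513 and 0.740 points in that order). The 3′ untranslated region of agouti (symbol a), the coat color gene, had a mean of 96.6.

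Nt5c2 (95.6), St3gal2 (95.1), Bcan (94.9), Slc35b4 (94.8), Heg1 (94.5), Orai2 (94.2) and Nsl1 (94.1) completed the 10. Nt5c2 encodes a cytosolic nucleotidase, St3gal2 a sialyltransferase, Bcan the brain proteoglycan brevican, Slc35b4 a nucleotide sugar transporter, Orai2 a calcium channel and Nsl1 a kinetochore protein. The Orai2 region shared 66.3% of its 24-base words with other places and is uncertain for the same reason as Lars2. Of these 10 regions, 3 were CpG-rich, fewer than among the coding ones, although with so few regions no comparison was made. None of the 25 regions passed the test in any comparison of genotypes described below, and the lowest adjusted p was 0.660 (limma, p300 or Tet2 effect).

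**Figure D4:**
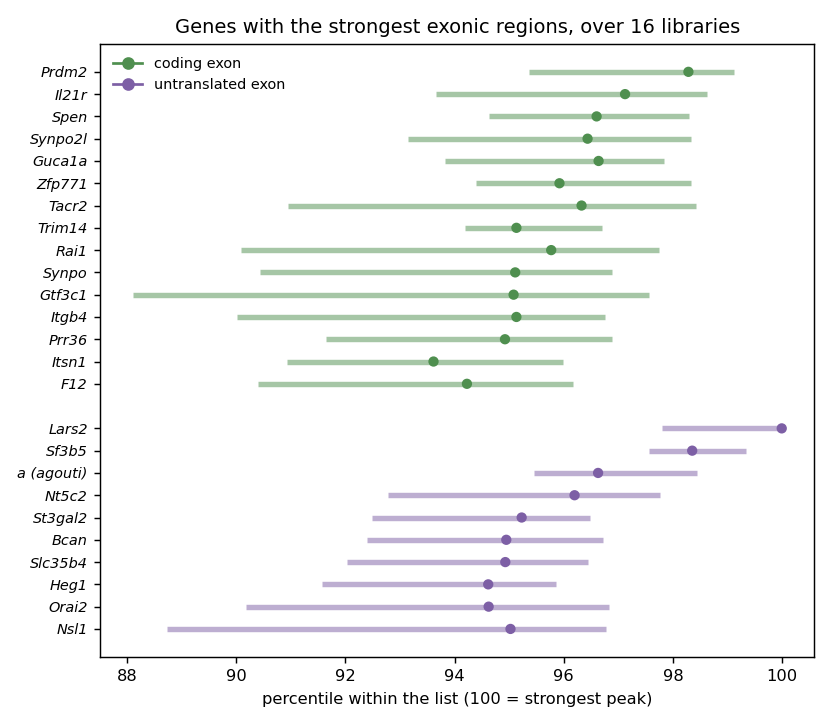
Percentile within the list (100 = strongest peak) of the strongest exonic region of the first 15 genes with a coding region (green) and the first 10 with an untranslated region (purple). Dots are medians and bars run from the lowest to the highest of the 16 libraries; all lie between 88.1 and 100.0, and Lars2 is at 100.0 in its median library.

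Exonic regions of stem and progenitor genes spanned a wide range of levels. Of 28 genes of stem and progenitor factors, 12 had 1 exonic region each, with a median mean percentile of 43.3, against 30.0 over all 3363. Tal1, a master regulator of hematopoietic stem cells, was highest with a coding region at chr4:115062478-115064250, at 83.5, 86.6 and 93.1 (lowest, median and highest). Its surrounding 300 bp had 75.3% GC and a CpG ratio of 0.963. Meis1 (73.7) and Cbfa2t3 (69.7) had 3′ untranslated regions in 16 of 16 lists, and Erg did as well, at 44.0. Lmo2, the partner of Tal1, had a coding region in 14 lists with a mean of 61.0. Etv6 was lowest at 1.20, with a peak in 4 lists.

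Receptors of cytokines and adhesion molecules had the highest median of the lists, 56.1. Of 25 genes 9 had 13 regions, and 7 of the 13 were in all 16 lists. Flt3, which encodes the receptor of Flt3 ligand on multipotent and lymphoid progenitors, had a region in an exon of a non-coding transcript at chr5:147362707-147363543. It lay 36429 bp from the nearest start and reached 78.5, 87.6 and 91.7 (lowest, median and highest). Il6ra, the interleukin 6 receptor, had a 3′ untranslated region at 80.2 ± 9.13 and Tgfbr2, a TGF-β receptor, one at 76.4 ± 3.06 (SD, n = 16). Other regions of the same 3 genes were weaker, at 12.2 in a coding exon of Flt3, 8.86 in a coding exon of Il6ra and 44.0 in another 3′ untranslated region of Tgfbr2.

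Genes of the mature lineages were counted in the same way, with no test between lists. Of 26 myeloid genes 5 had a region, with a median of 39.0, the highest being a 3′ untranslated region shared by the overlapping genes Csf1r and Hmgxb3 (65.5). Of 21 erythroid and megakaryocyte genes 3 had 5 regions with a median of 41.9, led by a 3′ untranslated region of Sptb, which encodes red cell spectrin (74.2). Of 24 lymphoid genes 5 had 6 regions with a median of 9.05, Flt3 among them, since it belongs to 2 lists. Of the 26 chromatin regulators of myeloid disease on these chromosomes 6 had 7 regions with a median of 4.70. Asxl2 was highest among these at 31.0, and Tet3, Tet1, Ep300, Kmt2d and Crebbp were all below 10 in mean percentile. Exons are a narrow view of these genes, and the presence of mature cells cannot be read from them.

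Zinc finger genes had regions in both coding and untranslated exons. Of 415 genes named Zfp, Zscan or Zkscan with a number, 36 had 39 regions, 18 coding and 16 in 3′ untranslated exons, with a median of 26.5. The regions at Zfp771, Zfp697 (91.3), Zfp503 (86.1), Zfp609 (82.9) and Zfp235 (77.9), had a mean of at least 75, which is 5 of 39 beside 452 (13.4%) of all exonic regions. Zfp235 ranged from 36.6 to 89.1 over the libraries, the widest of these 5. None of the regions of the 7 lists passed the test in any genotype comparison, the lowest adjusted p for the p300 or Tet2 effect being 0.0938, in the myeloid list (limma).

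Changes with genotype were tested for every region by limma on the percentiles, with the deposit set as a term, over all 125367 regions. The p300 effect is the mean difference between libraries with and without deleted Ep300, averaged over Tet2 background, and the Tet2 effect is built in the same way. For the p300 effect 2 exonic regions were higher and 6 lower at an adjusted p under 0.05, which is 0.0595% and 0.178% of the 3363. Of all regions 0.0909% were higher and 0.0861% lower. For the Tet2 effect 3 exonic regions were higher and 5 lower (0.0892% and 0.149%), against 0.071% and 0.0622% of all regions. The shares that were higher are close to those of all regions, and the shares that were lower exceed them but rest on 6 and 5 regions, so nothing particular to exons is read from them. Coding exons held 4 of the 8 regions for each effect.

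**Figure D5:**
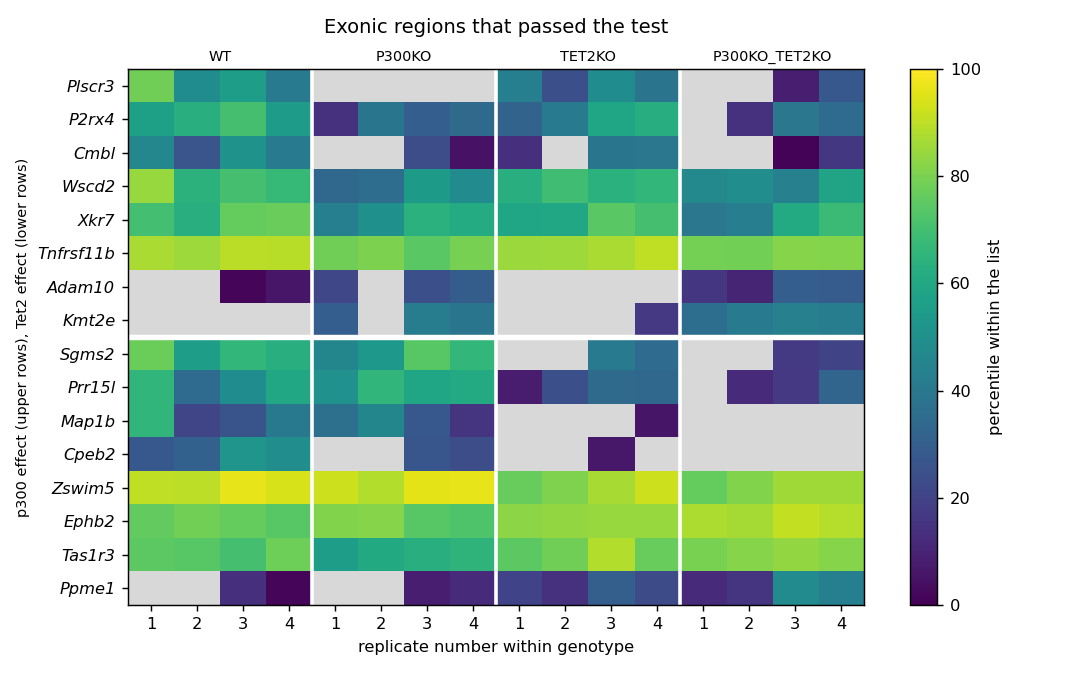
Percentile within the list (color, 0 to 100) of the 16 exonic regions that passed the test, in the 16 libraries; grey marks a library without a peak. The upper 8 rows passed for the p300 effect and the lower 8 for the Tet2 effect, and Plscr3 is grey in all 4 P300KO libraries while Sgms2 is grey in replicates 1 and 2 of TET2KO and P300KO_TET2KO.

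The 3′ untranslated region of Plscr3, which encodes a phospholipid scramblase, fell most with deleted Ep300. It lies at chr11:69850727-69851071, 4223 bp from the nearest start. Its percentiles were 78.3, 48.7, 55.9 and 41.2 in WT and 43.1, 24.3, 48.7 and 38.5 in TET2KO. No P300KO library had a peak there, and in P300KO_TET2KO replicates 1 and 2 had none while replicates 3 and 4 had 8.47 and 27.4. The groups overlapped in 1 library, as P300KO_TET2KO replicate 4 lay above TET2KO replicate 2. The p300 effect was −42.8 ± 5.67 points (SE, limma, adjusted p = 0.0156), and it was lower with p300 loss in both Tet2 backgrounds, by 56.0 and 29.7 points in the fitted single contrasts. Plscr3 was the 1 region of the 8 that passed when the replicate number replaced the set term (adjusted p = 0.0325), without the set term (0.0375) and on normal scores (0.0297), all by limma. These fits use the same values as the first fit and are not separate support.

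Of the other 5 that fell, 2 were in exons of non-coding transcripts. P2rx4, which encodes an ATP-gated channel, was at 0, 32.3 and 39.8 (lowest, median and highest) in the 8 libraries with deleted Ep300 and at 31.9, 58.0 and 70.4 in the others. Its effect was −29.2 ± 4.90 points (SE, limma, adjusted p = 0.0411). Wscd2 was at 33.4, 47.6 and 58.6 against 62.6, 66.7 and 84.6, with no overlap, and an effect of −22.3 ± 3.73 points (SE, limma, adjusted p = 0.0407). Both regions are on chromosome 5.

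Coding regions of Cmbl and Xkr7 fell as well. Cmbl, which encodes a hydrolase, was at 0, 0.410 and 23.4 against 0, 39.3 and 51.3, with a peak in 4 of 8 libraries against 7 of 8 and an effect of −26.6 ± 4.56 points (SE, limma, adjusted p = 0.0450). Xkr7, of the XK family of scramblases, was at 39.8, 55.8 and 68.2 against 59.3, 70.4 and 77.2, with an effect of −15.02 ± 2.13 points (SE, limma, adjusted p = 0.0203). The 3′ untranslated region of Tnfrsf11b, the decoy receptor osteoprotegerin, fell from 85.1, 87.4 and 90.4 to 74.2, 79.2 and 81.7, with no overlap. Its effect was −8.41 ± 1.30 points (SE, limma, adjusted p = 0.0281), the smallest of the 8 in size but the one with the least spread. Cmbl and Tnfrsf11b lie on chromosome 15, the chromosome of Ep300, 50 and 27.3 Mb from it. Of all 222 regions that passed for the p300 effect 3.15% were on chromosome 15, which holds 4.20% of the regions tested.

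The 2 regions that rose with deleted Ep300 were both coding and both weak. Kmt2e, which encodes a SET domain protein of hematopoietic progenitors, had a peak in 0 of 4 WT and 1 of 4 TET2KO libraries, in the latter at 16.8. It had one in 3 of 4 P300KO libraries, at 29.7, 42.5 and 39.0, and in all 4 of P300KO_TET2KO, at 35.96, 40.7, 43.7 and 42.2. The effect was 32.1 ± 4.54 points (SE, limma, adjusted p = 0.0197). Of its 24-base words 18.4% occur elsewhere. Adam10, which encodes the protease that cleaves Notch receptors, had a peak in 2 of 8 libraries without deletion, at 1.21 and 6.18, and in 7 of 8 with it, at 10.5 to 29.7. Its effect was 19.1 ± 3.24 points (SE, limma, adjusted p = 0.0424).

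For Tet2, the coding region of Sgms2, which encodes sphingomyelin synthase 2, fell most. It lies at chr3:131330272-131330562. Its percentiles were 77.5, 55.8, 66.2 and 63.3 in WT and 46.0, 53.2, 73.9 and 66.2 in P300KO. In TET2KO replicates 1 and 2 had no peak and replicates 3 and 4 had 41.1 and 35.1, and in P300KO_TET2KO the values were none, none, 16.8 and 20.3. The groups did not overlap, and the effect was −48.6 ± 4.84 points (SE, limma, adjusted p = 0.00243). It passed with the replicate number as a block (adjusted p = 0.0156) and without the set term (0.0420) but not on normal scores (0.143), all by limma. The region lies 2.13 Mb from Tet2. Of the 167 regions that passed for the Tet2 effect 11.4% were on chromosome 3, which holds 5.06% of the regions tested, and whether the linked chromosome of the Tet2-/- mice bears on Sgms2 was not tested.

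The other 4 that fell with Tet2 loss were less steady. Map1b, which encodes a microtubule-associated protein, had a peak in 8 of 8 libraries with Tet2, at 15.4 to 65.6, and in 1 of 8 without, at 5.68. Its effect was −34.1 ± 5.67 points (SE, limma, adjusted p = 0.0442). Cpeb2, which encodes an RNA-binding regulator of translation, had a peak in 6 of 8 against 1 of 8 libraries and an effect of −25.5 ± 3.36 points (SE, limma, adjusted p = 0.0155). Within P300KO its peak was absent in replicates 1 and 2. The 3′ untranslated region of Prr15l fell from 35.1, 59.4 and 65.7 to 0, 20.4 and 34.8 (lowest, median and highest), without overlap (−35.5 ± 5.05 points, SE, limma, adjusted p = 0.0247). Map1b passed on normal scores as well (limma, adjusted p = 0.00345). Zswim5 was strong in all libraries, at 88.6 to 96.4 with Tet2 and 76.2 to 92.2 without (−9.83 ± 1.44 points, SE, limma, adjusted p = 0.0281, 0.0386 on normal scores).

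The 3 regions that rose with Tet2 loss were all in 3′ untranslated exons. Ephb2, which encodes an ephrin receptor, rose from 72.3, 76.0 and 81.8 to 82.5, 85.7 and 91.0, with no overlap and an effect of 9.48 ± 1.57 points (SE, limma, adjusted p = 0.0442). Tas1r3, which encodes a subunit of the sweet and umami receptors, rose from 55.7, 67.7 and 77.8 to 74.97, 80.7 and 88.3, by 13.0 ± 1.93 points (SE, limma, adjusted p = 0.0286). Most of this averaged rise lay between P300KO, with a mean of 61.0, and P300KO_TET2KO, with 81.7, while WT had 74.3 and TET2KO 79.6 (interaction 15.4 ± 3.85 points, SE, limma, not past the adjusted threshold). Ppme1, the methylesterase of protein phosphatase 2A, had a peak in 4 of 8 libraries with Tet2, none above 13.6, and in 8 of 8 without, at 11.8 to 48.2. Its effect was 21.4 ± 3.43 points (SE, limma, adjusted p = 0.0397). No region passed for both effects.

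Of these 16 regions, Plscr3, Kmt2e, Adam10, Map1b and Cpeb2 had a peak in at most 2 of 8 libraries of the group where they were low. They met the minimum of 4 lists through the group where they were high, so their calls rest on values which that minimum used. The same limit holds for their calls in every other fit, also where libraries were left out.

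Few of these calls were steady. With the replicate number as a block in place of the deposit set, 1 exonic region passed for the p300 effect (Plscr3) and 1 for the Tet2 effect (Sgms2). Of all regions 0.0622% and 0.0375% passed there. When single libraries were left out, the number of exonic regions that passed ran from 3 to 13 for the p300 effect and from 1 to 14 for the Tet2 effect. It moved by more than 1.5 times for the p300 effect with every library except WT replicate 2, P300KO replicate 3, TET2KO replicates 1 and 2 and P300KO_TET2KO replicate 1, and for the Tet2 effect with every library except P300KO replicate 2 and TET2KO replicate 4. The highest counts came without WT replicate 1 for both effects and without P300KO replicate 2 for p300, and the lowest for Tet2 without P300KO replicate 4. The share of all regions that passed was not counted in these fits. Plscr3 and Sgms2 passed in 16 of 16 such fits, with adjusted p up to 0.0424 and 0.0105. Xkr7, Kmt2e and Cpeb2 passed in 15, Prr15l in 11 and the other 10 in 1 to 8. The direction of each of the 16 was the same in every fit.

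No exonic region passed for the interaction of p300 and Tet2 loss, for P300KO_TET2KO against TET2KO or for P300KO against WT in limma. Of all regions 0%, 0.0215% and 0.0223% passed. At an unadjusted p under 0.05 there were 132, 235 and 350 exonic regions, which is 3.93%, 6.99% and 10.4% of them and close to the 4.02%, 7.16% and 10.1% of all regions. The lowest adjusted p was 0.0619 at Coro7 for P300KO_TET2KO against TET2KO and 0.0510 at Plscr3 for P300KO against WT. The same limma fit on normal scores, without the set term or with the replicate block also called none, beside at most 0.0175% of all regions. With the strongest 50000 peaks of every list 2 exonic regions of 1335 were called for P300KO_TET2KO against TET2KO and 9 for P300KO against WT, beside 0.152% and 0.487% of all regions at that setting. Among regions in all 16 lists 4 were called for the latter, beside 0.160% of all such regions.

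By presence alone, 4 of 4 libraries of one genotype against 0 of 4 of the other, few exonic regions were gained or lost. P300KO_TET2KO gained 2 and lost 1 against TET2KO, beside 0.136% and 0.0303% of all regions. The gained ones were the Adam10 region and a 3′ untranslated region of Rasl10b, a Ras-like GTPase, at chr11:83420395-83420623, at 35.8 to 45.4 in P300KO_TET2KO. Rasl10b also had a peak in 3 of 4 WT and 3 of 4 P300KO libraries. The lost one was a coding region of Coro7, a coronin of the Golgi, at chr16:4655453-4655804, which was at 15.5 to 25.2 in TET2KO and had a peak in 0 of 4 WT and 1 of 4 P300KO libraries. P300KO gained none and lost 1 against WT, the Plscr3 region, beside 0.0311% and 0.0247% of all regions. These counts carry no test and were not steady. With 1 library left out, gains and losses together numbered 5 to 14 for P300KO_TET2KO against TET2KO and 3 to 18 for P300KO against WT. The shares over all regions were not counted for these.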

How the data were processed

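ATAC-Seq peaks of 16 libraries were used, 4 for each of 4 genotypes. The authors trimmed reads with cutadapt 1.9.1, aligned them to mm10 with Bowtie2 2.2.6, removed duplicates, shifted reads for Tn5 and called peaks per library with MACS2 2.1.0. Tool versions are from the submitters' processing notes. The deposited lists give a −log10 p and a −log10 q for each summit. The deposited fold column was not used. Values are comparable only within a list, so peaks were ranked by −log10 p, 100 being the strongest percentile. Exons came from GENCODE M21 and sequence from the RefSeq copy of GRCm38, both the build of the files.

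Per-library measures were compared with exact permutation tests in Python 3.11.15, with Benjamini-Hochberg adjustment over 3 comparisons. Regions were tested with limma 3.58.1 in R 4.3.3 on percentiles (0 where no peak), by genotype and deposit set, at a threshold of 0.05 adjusted over all regions. The fit was tested on simulated data. Alternatives were other peak and list minimums, 1 kb from a start, the summit in place of the midpoint, other model terms, normal scores and leaving out each library. The named genes were the first 15 with a coding and 10 with an untranslated region, up to 5 regions per direction of a comparison, and list genes with a mean of at least 75. Other list regions, the sixth p300 region, Coro7, Rasl10b and the genes with most regions were named after their values had been seen. Members, lists and tests were chosen with earlier results of these data known. Libraries of 1 genotype come from separate pools of mice as far as the labels say.

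Deviations from genotype means of libraries with the same replicate number correlated at 0.124 to 0.377 over 24 pairs. Within deposit sets these correlations were −0.0955 to 0.0422, none above the 0.1 taken as pairing, and values with the replicate number as a block are given beside the counts they move.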

Additional observations from a re-analysis of the deposited data

Results flagged for a closer look

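Within genotypes of 4 libraries, 5 of 76 groups held 1 library far from the others by Dixon's criterion, where chance alone gives about 1 in 20 groups. Kmt2e in TET2KO had a percentile of 16.8 in 1 library and no peak in the other 3. Cpeb2 and Map1b in TET2KO had 6.56 and 5.68 in 1 library each and no peak in the others. Cmbl in P300KO_TET2KO had 16.3 in 1 library, the others being at most 0.819. Ppme1 in WT had 13.6 in 1 library, the others being at most 1.31. In each case the library that stood apart was of deposit set 2, whose lists are longer, and the part of list length was not tested.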

How the results depend on the processing

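Of 433 values under other settings, 325 kept their direction and their side of the threshold or their size. The peak lists give no depth, so what depth limits could not be measured. Classes, percentiles and peak calls rest on the authors' thresholds, and absence means no peak at those thresholds. The cause of each change below was not tested, and the permutation p-values below are not adjusted over comparisons.

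With the strongest 50000 peaks of every list (1335 regions), the p300 difference in the share of regions with a peak was 4.42 points (exact permutation p = 0.0401). The Tet2 difference in that share was 7.88 points with a −log10 q of at least 2 (exact permutation p = 0.0494) and 7.03 in regions of at least 8 lists (exact permutation p = 0.0448). The level of regions in all 16 lists turned to 3.32 and 4.07 points for p300 and Tet2 under the q minimum, to 0.760 and 0.0501 with the strongest 50000, and for Tet2 to 33.3 as a rank position. Relative to introns, P300KO_TET2KO against TET2KO turned to −0.152. The coding excess changed with p300 by −1.55 (exact permutation p = 0.0231) and with Tet2 by 1.55 points (exact permutation p = 0.0201) with the strongest 50000, and with Tet2 by −0.128 under the q minimum.

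The coding excess over all 16 libraries was 0.526 points under the q minimum, 3.69 with the strongest 50000, 0.332 in at least 8 lists, −0.794 at 1 kb from a start (exact sign-flip permutation p = 0.0314), −2.66 by summit and 1.66 in all 16 lists. In CpG-poor regions it was −2.06 (exact sign-flip permutation p = 0.00125), and in those of all 16 lists 1.37. The excess over introns became −0.102 against intergenic regions. The CpG, intergenic and intron-relative settings were chosen after seeing the data.

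Regions called by limma for p300 and for Tet2 numbered 1 and 1 without the deposit set, beside 0.00798% and 0.0263% of all regions. With the replicate block, which pairs libraries by number, they numbered 1 and 1, beside 0.0622% and 0.0375%. On normal scores there were 1 and 2, beside 0.0327% and 0.0622%. With the strongest 50000 there were 32 and 13 of 1335, where 1.76% and 0.646% of all regions were called. Among the 850 regions in all 16 lists 12 were called for p300, 3 of them among the 8 of the full fit, 3 for Tet2 and 4 for P300KO against WT, beside 0.907%, 0.0930% and 0.160% of all such regions. With the strongest 50000, 2 were called for P300KO_TET2KO against TET2KO and 9 for P300KO against WT. The block changed no call in the other comparisons. A looser presence rule, 3 or more of 4 libraries against 1 or none, gave 140 and 114 regions for P300KO_TET2KO against TET2KO and P300KO against WT, and the strongest 50000 gave 13 and 10. Gains and losses are counted together here. The shares over all regions were not counted at these 2 settings, so nothing particular to exons is read from them.

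Leaving out single libraries gave 3 to 13 calls for p300, 1 to 14 for Tet2, 0 to 2 for P300KO_TET2KO against TET2KO and 0 to 4 for P300KO against WT, and presence counts of 5 to 14 and 3 to 18 for the last pair. The shares over all regions were not counted for these, so nothing particular to exons is read from them. The share with a peak ran from 2.61 (without WT replicate 1) to 6.28 for p300, 3.19 to 6.87 for Tet2 (past the threshold without P300KO replicate 3, exact permutation p = 0.0432) and from −1.52 to 9.12 for P300KO_TET2KO against TET2KO. The level ran from −1.05 to 0.0923 for p300, −1.002 (without P300KO replicate 2, exact permutation p = 0.0201) to 0.139 for Tet2 and −1.16 to 2.12 for P300KO_TET2KO against TET2KO. The coding excess ran from −0.501 to −0.225, −0.00875 to 0.267 and −0.299 to 0.00248 in the same order, passing for p300 without P300KO or P300KO_TET2KO replicate 1 (exact permutation p = 0.0309 and 0.0324). The share of CpG-rich regions ran from −0.0455 to 3.32 for p300, 1.77 to 5.14 for Tet2 and −2 to 2.73 for P300KO_TET2KO against TET2KO. The ranges of these 4 measures for P300KO_TET2KO against TET2KO disregard the set. There a library left out unbalances the sets, and the change cannot be told apart from the difference between sets.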
